A study of Mus musculus with 2 samples.

Results

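The genes described here are the Hedgehog and parathyroid hormone-related protein (PTHrP) signalling genes of the growth plate, namely Ihh, Gli1, Gli2, Gli3, Ptch1, Smo, Hhip, Pthlh and Pth1r. Every probe set of the array that the platform annotation gives exactly 1 gene symbol, equal to one of these 9, was taken. This gave 18 of 45037 non-control probe sets and 8 of 18193 genes, and the expression of Pthlh was not analysed here. The RNA came from ATDC5, a mouse chondrogenic cell line. Both cultures were serum-starved and received the protein synthesis blocker cycloheximide (CHX) at 10 µg/ml for 30 min. The CHX+Nell-1 culture then received recombinant human Nell-1, a secreted protein with bone-forming activity, at 100 ng/ml for another 30 min, and the CHX+PBS culture received PBS, with CHX added to both. Each group has 1 array and no replicate, so ratios compare 2 RNA samples, no test was possible and no error between cultures can be given. The series was made to screen for primary response genes, those whose transcripts respond to Nell-1 without newly made protein.

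In the growth plate, prehypertrophic chondrocytes secrete Indian hedgehog (Ihh), which binds the receptor Patched (Ptch1) and so releases Smoothened (Smo) from inhibition. Smoothened then controls the Gli transcription factors, of which Gli1 is an activator, Gli2 mainly an activator and Gli3 mainly a repressor. Ihh also sustains production of PTHrP, the product of Pthlh, in periarticular cells. PTHrP acts on its receptor Pth1r to delay hypertrophy and thereby limits the number of Ihh-producing cells, which closes a feedback loop. Ptch1, Hhip and Gli1 are transcribed in response to Hedgehog signals, and the products of Ptch1 and Hhip restrain the pathway.

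Values are MAS5 signals in arbitrary units, in which each probe set, a group of short probes for 1 transcript, has its own affinity. The size of a signal therefore does not rank transcript levels between genes. Signal was used to filter probe sets, to pick the brightest per gene and to set them against background. Signals of cell type markers were also summed, which does not rank cell types either. The mean signal over both arrays had a median of 64.3 over all probe sets, and 8 of the 18 probe sets of the pathway lay above it. As a yardstick for transcripts that such cells are not known to make, 44 probe sets of 39 olfactory receptor genes were used. Their 95th percentile was 55.0 with CHX+Nell-1 and 83.2 with CHX+PBS, and their highest signals were 63.7 and 107 in the same order. All 8 probe sets above the median exceeded every olfactory receptor probe set on both arrays. All 10 probe sets below the median lay under the olfactory receptor 95th percentile on both arrays. Signals at that level do not separate a rare transcript from an absent one, and 75.0% of the olfactory receptor probe sets themselves differed by 1.5-fold or more between the arrays.

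None of the 8 probe sets above the median signal reached 1.5-fold, the threshold stated for the series' own filter. They cover Ptch1, Smo, Pth1r, Gli2 and Gli3. Of all 22519 probe sets above the median, 14.5% reached it (5.97% higher and 8.48% lower with Nell-1). Among 10 equal bins of mean signal, this share was 19.5% in the bin of the Gli2 probe sets. It was 2.11% in the brightest bin, which held those of Smo and Ptch1. Those of Gli3 and Pth1r lay in the bin just below the brightest, where it was also under 14.5%. The lack of a ratio past 1.5-fold therefore does not set these 8 probe sets apart from others of similar signal. On the log2 scale the ratios of CHX+Nell-1 over CHX+PBS ran between -0.21 and 0.50 with a median of 0.24, against a median of -0.03 for all probe sets above the median signal. Sorted by the sign of the ratio, the 5 probe sets of Gli2, Gli3 and Ptch1 were higher with Nell-1, at 0.24 to 0.50. The 3 of Smo and Pth1r were lower, at -0.21 to -0.13. Because the genes were sorted on these same ratios, the shared sign within each group is no separate result. By role, the receptors were mixed, with 1 probe set higher and 3 lower. The spread of the log2 ratio among probe sets of similar signal, as a robust SD within 10 equal bins of mean signal, was used to judge size. It mixes noise with real differences. In 5 of the 8 probe sets the ratio was smaller than this spread, a share of 62.5%, and over all probe sets above the median the share was 67.3%. In bulk RNA a smaller share of cells with a transcript and less of it per cell cannot be told apart. RNA controls were lower on the CHX+Nell-1 array, while 5 of the 8 pathway probe sets were higher. The 24 probe sets for poly-A spike-ins, bacterial RNAs mixed in ahead of labelling, were all lower with a median of -0.49 on the log2 scale. So were the 18 for hybridisation spike-ins, with -0.18. The part of both kinds of spike-in in these ratios was not tested.

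**Figure D1:**
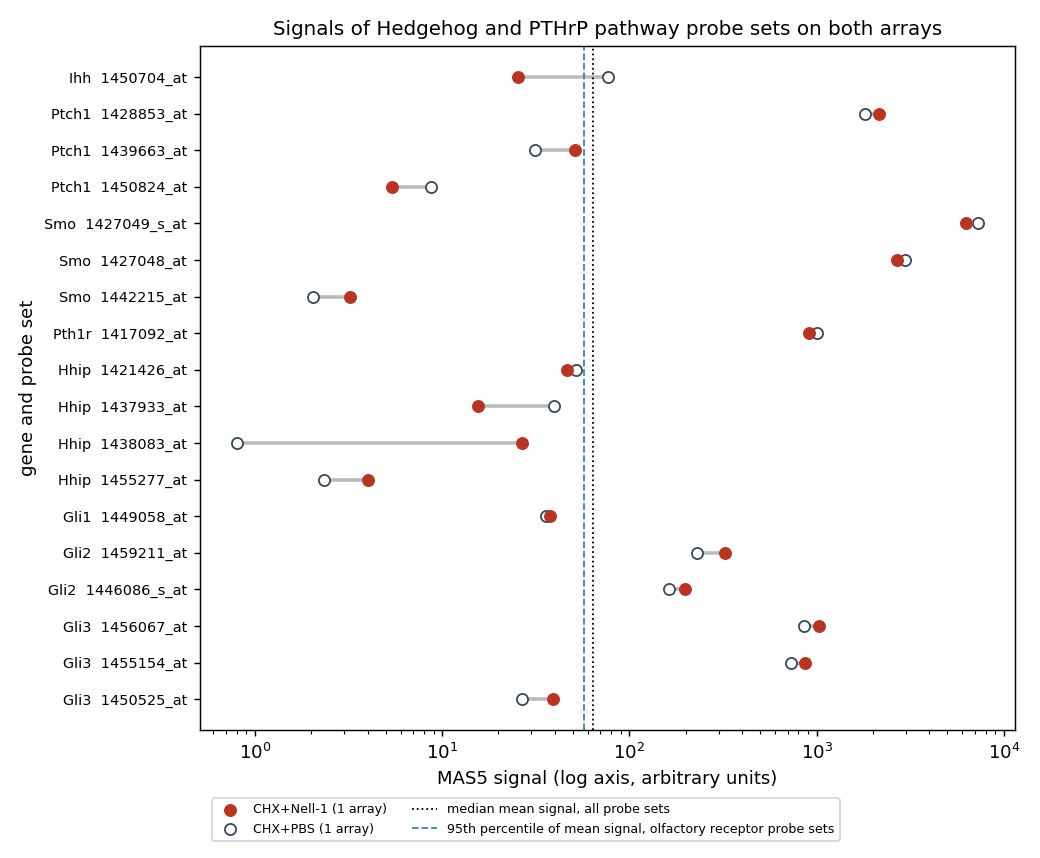
MAS5 signal (log axis, arbitrary units) of each of the 18 probe sets on the CHX+Nell-1 array (filled) and the CHX+PBS array (open), with a grey line joining the 2 values. The dotted line is the median mean signal of all probe sets (64.3), the dashed line is the 95th percentile of the mean signal of olfactory receptor probe sets (57.3), and 8 probe sets of Ptch1, Smo, Pth1r, Gli2 and Gli3 lie to the right of both with their 2 points close together.

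Among the receptors, Ptch1, the Hedgehog receptor and itself a target of the pathway, had signals of 2141 with CHX+Nell-1 and 1809 with CHX+PBS on its brightest probe set (1428853_at). The Nell-1 culture was 1.18-fold higher, a log2 ratio of 0.24 against a spread of 0.21 in the brightest bin, where 2.11% of all probe sets passed 1.5-fold. The other Ptch1 probe sets disagreed in direction, at 51.1 with CHX+Nell-1 and 31.2 with CHX+PBS for 1439663_at and at 5.42 and 8.71 for 1450824_at. Both lay in the range of the olfactory receptors.

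Smo encodes the membrane protein that passes the signal into the cell and is the target of clinical Hedgehog inhibitors. It measured 6300 with CHX+Nell-1 and 7310 with CHX+PBS on 1427049_s_at, a log2 ratio of -0.21 beside a spread of 0.21. A second probe set designed on the same sequence record, 1427048_at, measured 2698 with CHX+Nell-1 and 2949 with CHX+PBS, a log2 ratio of -0.13. The Smo signal was thus 1.09-fold to 1.16-fold lower with Nell-1 on both bright probe sets. These share a source and do not count as independent measurements. The third, 1442215_at, was near the bottom of the scale at 3.24 with CHX+Nell-1 and 2.04 with CHX+PBS.

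Pth1r, the G-protein-coupled receptor shared by PTHrP and parathyroid hormone, was read by 1 probe set (1417092_at). Its signal was 908 with CHX+Nell-1 and 1009 with CHX+PBS. The log2 ratio of -0.15 was smaller than the spread of 0.28 at this signal. On this 1 probe set, Pth1r was thus read above the olfactory receptor range on both arrays.

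The Gli factors had 4 probe sets above the median signal, for Gli2 and Gli3, with log2 ratios of 0.25 to 0.50 and a median of 0.29. All 4 ratios were above 0, as were 46.6% of those of all probe sets above the median. The other 2 Gli probe sets lay in the olfactory receptor range. Gli2 had the highest ratio among the probe sets above the median signal. It measured 326 with CHX+Nell-1 and 231 with CHX+PBS on 1459211_at, 1.41-fold higher, a log2 ratio of 0.50 against a spread of 0.43. Its second probe set, 1446086_s_at, was designed on the same sequence record and measured 199 with CHX+Nell-1 and 162 with CHX+PBS, 1.23-fold higher. At signals of this size 19.5% of all probe sets differed by 1.5-fold or more.

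Gli3, which in the absence of ligand is cut to a repressor, was 1.21-fold higher with Nell-1 on 1456067_at (1029 with CHX+Nell-1 and 853 with CHX+PBS). It was 1.19-fold higher on 1455154_at (865 with CHX+Nell-1 and 729 with CHX+PBS). Both log2 ratios, 0.27 and 0.25, were just under the spread of 0.28. These were designed on different sequence records and differed from each other by 0.02 on the log2 scale. Both read the same pair of RNA samples, so their likeness says nothing of repeatability between cultures. The third probe set, 1450525_at, gave 39.0 with CHX+Nell-1 and 26.9 with CHX+PBS, within the olfactory receptor range. Its log2 ratio was 0.54 as deposited and past 1.5-fold at 0.59 with median centring, 0.68 with a lowess trend on signal removed and 0.69 with quantile normalization. It was under 1.5-fold at 0.35 with 17.9 (the 25th percentile of the mean signal) added to both signals and 0.54 with 17.9 as a floor.

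Gli1, the factor most often used as a readout of active Hedgehog signalling, was read by 1449058_at alone. Its signal was 37.7 with CHX+Nell-1 and 35.8 with CHX+PBS, a log2 ratio of 0.08, and both values lay below the median and in the olfactory receptor range. The array therefore gave no usable level for Gli1 in either culture.

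The probe sets of the ligand Ihh and the antagonist Hhip, which binds Hedgehog ligands at the cell surface, were dim on both arrays. Ihh had 1 probe set (1450704_at), with 25.4 for CHX+Nell-1 and 76.5 for CHX+PBS. Its log2 ratio of -1.59 was past 1.5-fold, in a bin of signal where 53.8% of all probe sets were. The 76.5 on the CHX+PBS array was under the olfactory receptor 95th percentile of 83.2.

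The 4 Hhip probe sets pointed in both directions. Signals were 46.2 with CHX+Nell-1 and 51.7 with CHX+PBS for 1421426_at, and 15.5 with CHX+Nell-1 and 39.4 with CHX+PBS for 1437933_at. They were 26.6 and 0.801 for 1438083_at, and 4.03 and 2.34 for 1455277_at, in the same order. With 2 higher and 2 lower, they gave no common direction for Hhip. The log2 ratio of 5.05 for 1438083_at rests on the 0.801 of the CHX+PBS array, and was 1.25 with 17.9 (the 25th percentile of the mean signal) added to both signals and 0.57 with 17.9 as a floor.

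Over all 18 probe sets, 7 passed 1.5-fold, 4 higher and 3 lower with Nell-1, which is 38.9%. The figure for all probe sets of the array was 40.6%, with 17.5% higher and 23.1% lower. All 7 lay below the median signal, where 66.7% of all probe sets passed and 70.0% of these did. With 17.9 added to both signals, or used as a floor, the count was 3, with 1 higher and 2 lower. It was 8 with median centring, 5 higher and 3 lower. After lowess smoothing removed a trend on signal, and also after quantile normalization, 5 were higher and 2 lower.

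**Figure D2:**
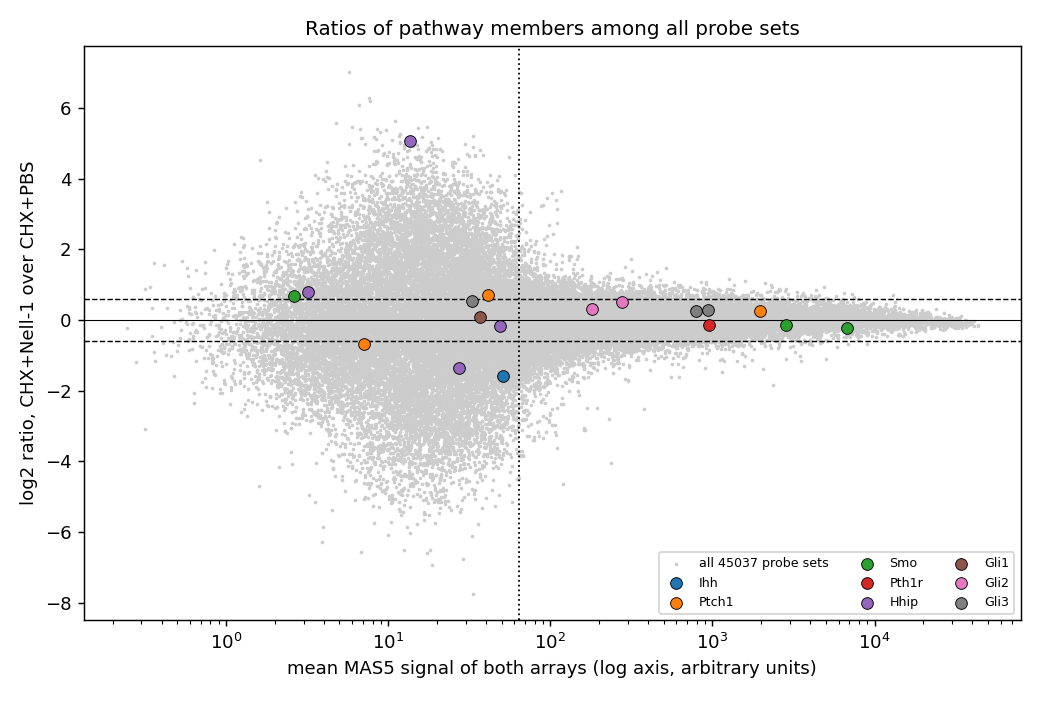
Log2 ratio of CHX+Nell-1 over CHX+PBS against the mean MAS5 signal of both arrays (log axis, arbitrary units) for all 45037 probe sets (grey) and the pathway probe sets (coloured by gene). Dashed lines mark 1.5-fold either way and the dotted line the median signal of 64.3; every coloured point to the right of it lies between the dashed lines.

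No bright probe set was designed on a RefSeq mRNA record, while the dim ones were on records of both kinds. The 5 probe sets designed on a RefSeq mRNA record, 1 each for Ihh, Gli1, Gli3, Hhip and Ptch1, all lay below the median signal. Of the 13 designed on another mRNA or an expressed sequence tag, 8 lay above it. Over all probe sets with 1 symbol the shares above the median were 60.5% for RefSeq records and 56.8% for the others. For Ptch1 and Gli3 the bright probe sets were on other records and the one on a RefSeq record was dim. Ihh, Gli1 and Hhip had no bright probe set. Smo and Ptch1, picked for the brightness of their probe sets, had close neighbours in the pair of log2 signals, a likeness over only 2 arrays that does not compare transcript levels. For Smo the nearest genes were Sri and Tnfrsf12a, among 27 genes within 0.1 on both arrays. For Ptch1 they were Mrpl45 and Aebp2, among 68.

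The promoters of 8 of the 9 genes were matched by symbol in RefSeq tables of build GRCm38.p6, as 250 bases before to 50 bases after each start, with 3 starts for Pth1r. Those of Ptch1 and Hhip, textbook targets of Gli factors, and of Gli2 and Gli3, which had the most probe sets above the median with a higher signal, are shown to let the binding motifs be looked for. Capitals mark GC boxes (GGGCGG or its complement CCGCCC), which Sp-family factors bind, and the full cyclic AMP response element TGACGTCA. The sequences are Ptch1 at chr13:63565686-63565985 on the minus strand, Gli2 at chr1:119053570-119053869 on the minus strand, Gli3 at chr13:15463473-15463772 on the plus strand and Hhip at chr8:80057959-80058258 on the minus strand, each 5′ to 3′.
Ptch1: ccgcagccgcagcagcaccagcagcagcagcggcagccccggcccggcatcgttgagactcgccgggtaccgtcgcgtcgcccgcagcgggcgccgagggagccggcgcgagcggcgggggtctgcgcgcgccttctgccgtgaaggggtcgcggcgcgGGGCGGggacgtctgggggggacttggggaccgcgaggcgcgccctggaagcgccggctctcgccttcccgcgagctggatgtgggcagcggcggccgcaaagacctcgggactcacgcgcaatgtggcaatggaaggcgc
Gli2: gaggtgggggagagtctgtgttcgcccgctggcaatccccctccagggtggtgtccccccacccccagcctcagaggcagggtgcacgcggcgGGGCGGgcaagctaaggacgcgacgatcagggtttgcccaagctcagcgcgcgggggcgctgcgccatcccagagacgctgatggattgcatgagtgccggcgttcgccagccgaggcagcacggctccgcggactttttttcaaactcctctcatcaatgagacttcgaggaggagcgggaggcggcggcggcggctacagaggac
Gli3: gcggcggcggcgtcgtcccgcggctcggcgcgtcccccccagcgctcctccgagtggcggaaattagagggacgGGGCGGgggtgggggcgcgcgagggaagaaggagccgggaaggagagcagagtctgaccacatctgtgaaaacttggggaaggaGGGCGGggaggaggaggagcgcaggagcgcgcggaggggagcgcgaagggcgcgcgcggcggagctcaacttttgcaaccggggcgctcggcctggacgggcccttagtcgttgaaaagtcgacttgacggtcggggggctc
Hhip: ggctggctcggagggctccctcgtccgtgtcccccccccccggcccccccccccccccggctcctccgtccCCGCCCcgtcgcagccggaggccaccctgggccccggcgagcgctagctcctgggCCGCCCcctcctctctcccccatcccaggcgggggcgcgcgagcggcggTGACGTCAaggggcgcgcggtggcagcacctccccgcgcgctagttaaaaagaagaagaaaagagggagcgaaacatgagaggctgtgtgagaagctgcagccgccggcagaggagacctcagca
The Gli consensus GACCACCCA (complement TGGGTGGTC) was in none of the 10 promoters of the 8 genes, and 0.253% of 32851 promoters held it. Its core CCACCCA was also in none, against 9.30% of all promoters. The cyclic AMP response element, bound by CREB downstream of Gs-coupled receptors such as Pth1r, was in the Hhip promoter alone, against 1.79% of all. GC boxes were in 8 of the 10, against 35.7%. All but 1 of the 10 promoters, an upstream Pth1r start with 5 CpG dinucleotides, had more CpG than the median of 7, and Ptch1 had the most with 47. A motif match is a description of these letters and not evidence of binding.

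**Figure D3:**
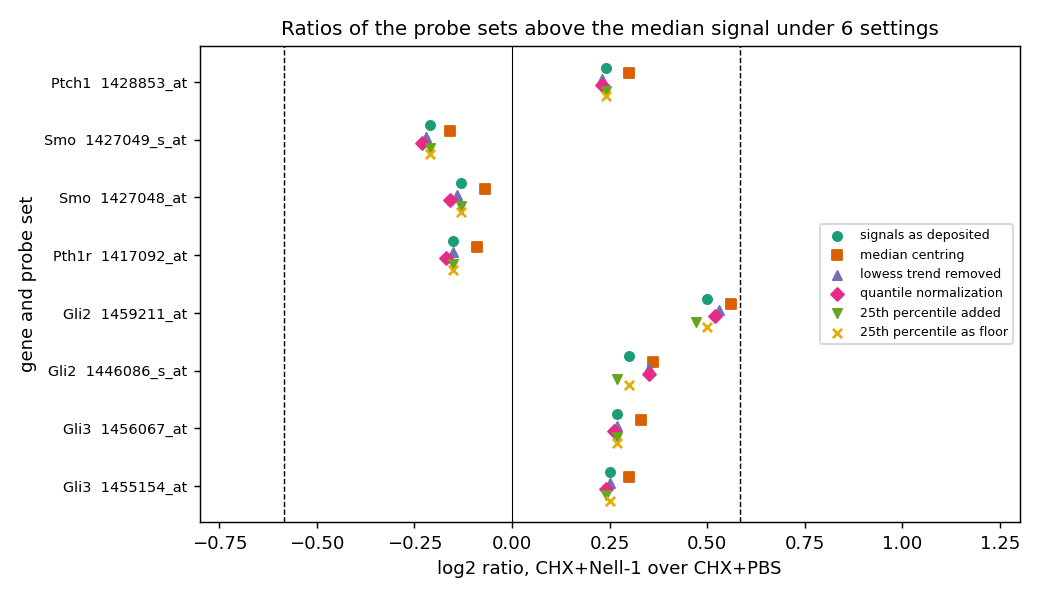
Log2 ratio of CHX+Nell-1 over CHX+PBS for the 8 probe sets above the median signal, with signals as deposited and under 5 other settings (marker shapes). Dashed lines mark 1.5-fold; Ptch1, Gli2 and Gli3 stay between 0.23 and 0.56, and Smo and Pth1r between -0.23 and -0.07.

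Other genes of both pathways and of the growth plate were taken from 8 lists, of which 94 of 100 genes were measured, each by its brightest probe set. Past 1.5-fold were 10 higher and 17 lower with Nell-1, 28.7% together, and the median log2 ratio was -0.11. Of all 18193 genes 32.1% passed, 13.1% higher and 19.0% lower, and their median was -0.06. Among the 71 genes above the median signal, 3 passed as higher (4.23%) and 10 as lower (14.1%), against 4.56% higher and 7.53% lower for all 11600 such genes. Of these 10, Stk36, Hsd11b2 and Mef2c lay under the highest olfactory receptor signals on both arrays, and Scube1 did on the CHX+Nell-1 array. Adcy9, Hhat, Cdon, Btrc, Sik1 and Cdkn1c lay above them on both, but the Adcy9 probe sets disagreed in direction. The spike-in RNAs were lower on the same array, and their part in these counts was not tested.

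On the side that makes and releases Hedgehog ligands, 2 of 8 genes were higher, 2 lower and 4 neither, and 3 lay above the median signal. Hhat, the acyltransferase that adds palmitate to Hedgehog proteins, measured 192 with CHX+Nell-1 and 372 with CHX+PBS, 1.94-fold lower. Its second probe set was lower as well (45.4 with CHX+Nell-1 and 112 with CHX+PBS). Disp1, which exports the lipid-modified ligand, had a log2 ratio of -0.28. Scube1, of the secreted family that helps release it, had 24.0 with CHX+Nell-1 and 188 with CHX+PBS on its only probe set, and the first of these lies in the olfactory receptor range. The ligands Shh (17.2 with CHX+Nell-1 and 18.2 with CHX+PBS) and Dhh (34.2 and 28.7) were in that range on both arrays, as Ihh was.

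Of 7 genes of Hedgehog reception, none was higher, 2 were lower and 5 neither, which is 28.6% past 1.5-fold against 32.1% of all genes. Cdon, a Hedgehog co-receptor, measured 870 with CHX+Nell-1 and 1338 with CHX+PBS, 1.54-fold lower, and its other probe set was dim (27.5 and 14.7). The co-receptor Gas1 was bright and near equal at 22175 with CHX+Nell-1 and 24256 with CHX+PBS, a log2 ratio of -0.13. Downstream of Smo, 2 of 15 genes were higher, both below the median signal, 2 lower and 11 neither, or 26.7% past 1.5-fold. The lower ones were Stk36 and Btrc. Stk36, a kinase homologous to Drosophila fused, measured 43.7 with CHX+Nell-1 and 93.9 with CHX+PBS. Both values were under the highest olfactory receptor signals, 63.7 and 107 in the same order. Btrc, which targets Gli proteins for processing, measured 268 with CHX+Nell-1 and 413 with CHX+PBS. Btrc was past 1.5-fold on 2 of its 3 probe sets above the median. Prkaca, the catalytic subunit of protein kinase A that primes Gli processing, was at -0.01 on its brightest probe set, of a type shared between transcripts. Its other probe set was at -0.24. Of 7 genes of the primary cilium, where the pathway is organised, none of the 6 above the median reached 1.5-fold. Of all genes above the median 12.1% did. Ofd1, a basal body gene, was at 0.21.

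Among 13 reported Hedgehog targets the median log2 ratio was 0.10, and 1 passed as higher and 2 as lower. Together these are 23.1%, against 32.1% of all genes. Hsd11b2, a steroid-converting enzyme, was the one of the 10 above the median to pass 1.5-fold, at 49.1 with CHX+Nell-1 and 81.9 with CHX+PBS, both in the olfactory receptor range. The 9 others above the median, among them the cyclin Ccnd1 (0.10), Foxf1 (-0.21) and Bmp4 (0.12), did not.

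In the transduction of the PTHrP receptor signal, 3 of 18 genes were higher, 1 lower and 14 neither. That is 22.2% past 1.5-fold, against 32.1% of all genes. Of the 3 higher genes, 1 lay above the median signal. Rgs2, a brake on G-protein signalling that is induced by cyclic AMP in osteoblasts, measured 1140 with CHX+Nell-1 and 614 with CHX+PBS, 1.86-fold higher. Its 2 other probe sets above the median gave 715 with CHX+Nell-1 and 392 with CHX+PBS, and 553 with CHX+Nell-1 and 287 with CHX+PBS, so that all 3 passed. The adenylyl cyclase gene Adcy9 disagreed among its probe sets, at 256 with CHX+Nell-1 and 401 with CHX+PBS on the brightest, 177 and 85.3 on another and neither way on the remaining 2. Gnas, encoding the stimulatory G protein, was at -0.18 on its brightest probe set, of a type shared between transcripts. Its other probe set above the median was past 1.5-fold the opposite way, at 106 with CHX+Nell-1 and 55.9 with CHX+PBS. Of 12 effectors and targets of PTHrP, 1 was higher, below the median signal, 2 were lower and 9 neither. Sik1, a salt-inducible kinase gene switched on by cyclic AMP, had 77.3 with CHX+Nell-1 and 165 with CHX+PBS. Mef2c, a driver of hypertrophy, had 55.5 with CHX+Nell-1 and 101 with CHX+PBS on the 1 of its 5 probe sets above the median. Both values were under the highest olfactory receptor signals, 63.7 and 107 in the same order. Its other probe sets, all dim, did not share a direction. Zfp521, a PTHrP-induced transcriptional regulator, was at -0.30.

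**Figure D4:**
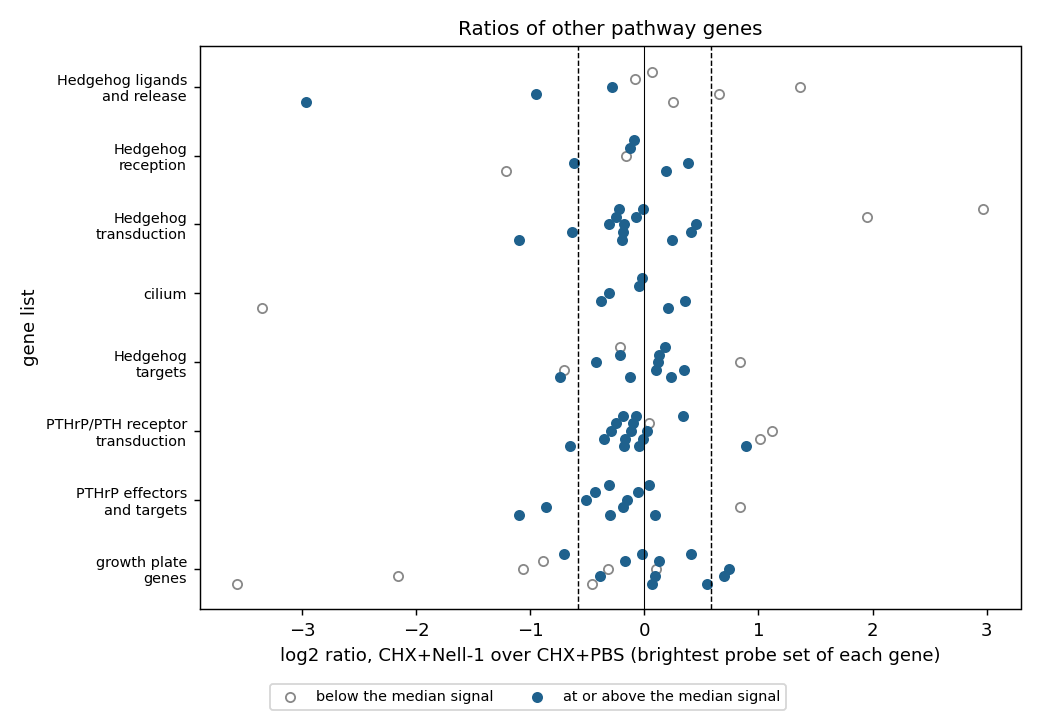
Log2 ratio of CHX+Nell-1 over CHX+PBS for each gene of the 8 lists, by its brightest probe set; filled points are genes at or above the median signal, open points genes below it, and dashed lines mark 1.5-fold. Of the 71 filled genes 3 lie past the right line (Rgs2, Acan and Sox6) and 10 past the left, a gene of 2 lists is drawn in each, and vertical offsets carry no meaning.

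The growth plate list had 2 of 18 genes higher, 5 lower and 11 neither, which is 38.9% past 1.5-fold against 32.1% of all genes. Of the 5 lower, 4 lay below the median signal. The fifth was Cdkn1c, a cell-cycle inhibitor of the growth plate, at 193 with CHX+Nell-1 and 315 with CHX+PBS. Acan (293 with CHX+Nell-1 and 176 with CHX+PBS), encoding the aggrecan core protein, and the chondrogenic factor Sox6 (338 and 208) were the 2 higher genes. Alpl, encoding the alkaline phosphatase of mineralising cells, was at 0.55. The hypertrophic marker Col10a1 was dim on both arrays, at 4.02 with CHX+Nell-1 and 8.38 with CHX+PBS, as was Ihh, which marks the stage just before. Of 11 measured chondrocyte markers 7 (63.6%) lay above the median signal, near the 63.8% of all genes, so this count says nothing of cell identity. Among the 7 were Col2a1 (1206 with CHX+Nell-1 and 909 with CHX+PBS) and Sox9 (2577 and 3375). Comp, Matn1, Hapln1 and Cnmd lay below it. So did all 5 endothelial and all 3 haematopoietic markers, 4 of 5 muscle, 3 of 5 epithelial, 2 of 4 adipocyte and 2 of 5 osteoblast markers. Summed signals of the other cell types were 95.4 with CHX+Nell-1 and 170 with CHX+PBS for endothelial, 52.2 and 26.7 for haematopoietic, 217 and 325 for muscle, 537 and 676 for epithelial, and 676 and 704 for adipocyte markers. They were 5718 with CHX+Nell-1 and 6054 with CHX+PBS for chondrocyte markers and 23564 and 25384 for osteoblast markers. Each sum adds probe sets of unlike affinity over 3 to 11 genes. Col1a1 alone gave 18359 with CHX+Nell-1 and 21720 with CHX+PBS of the osteoblast sums. The sums therefore do not rank cell types. No marker was listed at 0.

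Both arrays had a 2% trimmed mean of 500.0, with signals up to 41205 on the CHX+Nell-1 array and 45842 on the CHX+PBS array. The log2 signals correlated at r = 0.975 across the 22519 probe sets above the median, which are not independent replicates. The ratio of 3′ to 5′ control signals was 1.28 with CHX+Nell-1 and 1.32 with CHX+PBS for Actb, and 0.86 and 0.85 for Gapdh.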

How the data were processed

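Biotin-labelled RNA from 2 ATDC5 cultures was read on 1-colour Affymetrix arrays, per the labels. The authors deposited intensity values, linear MAS5 signals per probe set made in Affymetrix Expression Console, per the submitters' processing notes. Its version is not given in the sources used here. The MAS5 method scales each array by 1 factor and corrects for mismatch probes, which leaves small, unstable signals for rare transcripts. Detection calls were not used here. From these values the log2 ratio of CHX+Nell-1 over CHX+PBS was computed for 45037 probe sets, with no further normalization, after 64 controls were set apart. The number of arrays limits the precision. The platform annotation gave 1 symbol to 34945 probe sets, several to 932 and none to 9160. RefSeq GRCm38.p6 tables gave symbols (34741 of 34945 by gene ID) and promoters. Of pathway genes, the brightest of each list and up to 4 per list past 1.5-fold above the median signal were named by rule, while Shh, Dhh, Ccnd1, Foxf1, Bmp4, Col10a1 and the cell type markers were named after their values were seen. The members and lists were chosen with earlier results of these data known, and the olfactory receptor yardstick was added after the data were seen. Code was tested on simulated arrays. Alternatives were 3 rescalings, an added or floor value of 17.9, a 2-fold threshold, other signal filters and leaving out shared probe sets. Python 3.11.15, pandas 2.3.3 and statsmodels 0.14.6 were used.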

Additional observations from a re-analysis of the deposited data

How the results depend on the processing

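All 8 probe sets above the median signal kept their direction and stayed under 1.5-fold with median centring, removal of a lowess trend and quantile normalization. An added or floor value of 17.9 could not have changed this and shows nothing of stability. All their signals were at least 162, above the floor, and adding a value to both signals only shrinks a ratio. A 2-fold threshold, stricter signal filters and leaving out shared probe sets could only return the same count of 0 and show nothing of stability. Of the 10 dim probe sets, 7 kept their direction and 4 their side of 1.5-fold. None reversed direction. Hhip 1455277_at, Ptch1 1450824_at and Smo 1442215_at reached a log2 ratio of 0 with the floor alone, by construction, as both their signals lay under 17.9. The count of all pathway probe sets past 1.5-fold, 7 as deposited, was 3 with 17.9 added, 3 with 17.9 as a floor and 3 at 2-fold. The count of other pathway genes, 27 as deposited, was 13 at 2-fold and 13 when only genes above the median signal were kept. Median centring shifted every ratio by 0.06, under which the median of all probe sets is 0 by construction. Ihh ranged from -1.59 to -1.13. No paired analysis was possible because each group has 1 array, and no replicate could be left out for the same reason. Signal near the olfactory receptor range limits Ihh, Hhip and Gli1.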
